A study of Mus musculus with 17 samples.

Results

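Among cells sorted from mouse skin as innate lymphoid cells (ILCs), a small group carried transcripts of the CD3 complex, which marks T cells. In the single-cell library labelled skin ILC (sc_skin_ILC), 104 of 4106 cells kept were CD3-transcript-positive, or 2.53% (2.07 to 3.06, exact Clopper-Pearson 95% interval). These cells were chosen by their measured counts: at least 200 genes, under 10% of counts in mitochondrially encoded genes, and Cd3e plus Cd3d counts of 2 or more. They are called CD3-positive cells here and were set against 3852 cells in which both genes had 0 counts, called CD3-zero cells. The remaining 150 cells had 1 count and were in neither class. The library came from C57BL/6 mice and 1 sample was deposited, with no treatment in its own labels. The study also held dorsal skin ILC libraries from 0 and 10 days after hair removal (sc_dorsal_day0 and sc_dorsal_day10, 1 sample each) and 14 bulk libraries. Of the bulk libraries, 2 fm_pos and 2 fm_neg came from fate-map (fm) reporter mice, sorted as reporter-positive or -negative. A further 3 fm_pos_Gata3flox and 3 fm_neg_Gata3flox came from such mice labelled Gata3flox. The other bulk libraries were 2 of wild-type C57BL/6 mice (WT_tamoxifen) and 2 of Gata3fl/flCreERT2 mice (Gata3KO_tamoxifen), both given 3 injections of 5 mg tamoxifen. Per the labels, bulk cells were sorted by CD90 after removal of dead cells, of cells with lineage markers and of those stained for the γδ T cell receptor. For the single-cell libraries the labels name sorted ILCs of ear and dorsal skin without giving the gate, and do not say from which site the skin library came.

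The T cell receptor is a pair of variable chains, alpha with beta or gamma with delta, held at the cell surface by the CD3 proteins. Cd3e, Cd3d and Cd3g encode the epsilon, delta and gamma subunits, and Cd247 encodes the zeta chain that carries the signal inward. ILCs share many transcription factors and cytokines with T cells but have no assembled antigen receptor, and unrearranged receptor loci and some CD3 genes are known to be transcribed in them at low level. Skin harbours αβ T cells and γδ T cells, among them dermal γδ cells that make IL-17.

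The 3 CD3 genes lie together on chromosome 9, and their promoters are shown because 2 of the genes chose the cells and the third, Cd3g, gives the nearest reading that did not. Each sequence holds the 250 bases before the RefSeq start, from RefSeq on GRCm38.p6, written 5′ to 3′ on the gene's strand, with matches to the E-box CANNTG in capitals. The windows are chr9:45009612-45009861 on the minus strand for Cd3e, chr9:44981536-44981785 on the plus strand for Cd3d and chr9:44980432-44980681 on the minus strand for Cd3g.
Cd3e: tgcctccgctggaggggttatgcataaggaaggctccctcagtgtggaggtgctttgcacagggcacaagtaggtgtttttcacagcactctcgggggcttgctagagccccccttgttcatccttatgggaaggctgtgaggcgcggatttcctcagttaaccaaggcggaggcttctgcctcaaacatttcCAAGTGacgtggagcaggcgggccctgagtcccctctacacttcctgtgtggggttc
Cd3d: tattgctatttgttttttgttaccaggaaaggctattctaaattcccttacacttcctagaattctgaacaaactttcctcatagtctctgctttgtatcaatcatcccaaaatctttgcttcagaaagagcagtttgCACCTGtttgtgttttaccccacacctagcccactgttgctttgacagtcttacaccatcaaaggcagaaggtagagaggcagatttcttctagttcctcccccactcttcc
Cd3g: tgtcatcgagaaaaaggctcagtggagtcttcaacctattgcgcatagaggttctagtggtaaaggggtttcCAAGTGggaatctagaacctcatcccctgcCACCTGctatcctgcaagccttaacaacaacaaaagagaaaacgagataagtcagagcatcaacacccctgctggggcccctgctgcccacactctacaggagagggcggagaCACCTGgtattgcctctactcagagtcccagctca
Cd3d and Cd3g face away from each other, with 1355 bases between their starts, and the Cd3e start lies 27825 bases beyond that of Cd3d. The E-box was matched 1 time in the Cd3e window, 1 time in the Cd3d window and 3 times in the Cd3g window, and 66.2% of 32851 mouse promoter windows of the same length hold at least 1 match. On both strands, CAAAG was matched 4 times before Cd3d, 1 time before Cd3e and 0 times before Cd3g (48.6% of all windows hold it). AGGAAG was matched 2 times before Cd3e, 1 time before Cd3d and 0 times before Cd3g (29.5% of all windows). AGATAA had a match before Cd3g alone among the 3 genes (9.99% of all windows), and TGTGGT had none before any of them (14.0% of all windows). Such matches describe the letters of these windows and not binding.

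The counts that chose the cells were low. Of the 104 CD3-positive cells, 50 had exactly 2 counts, 22 had 3, 9 had 4, 9 had 5, 8 had 6, 2 had 7, 3 had 8 and 1 had 9. Cd3e was counted in 94 of them, Cd3d in 62 and both genes in 52. Just outside the threshold, the 150 cells with 1 count held Cd3e in 105 cells and Cd3d in 45. Depth was similar on either side: the median total was 2527.5 counts in cells with 2 CD3 counts, 2574 in cells with 1 and 2341 in CD3-zero cells. CD3-positive cells had a median of 2661 counts and 1309.5 genes against 2341 counts and 1152 genes in CD3-zero cells, and a median mitochondrial share of 3.89% against 4.49%. Their summed counts were 297915 against 9519403. The part that depth plays in each difference was not tested beyond the alternatives given in the closing section. A doublet caller marked 3 of the 4106 cells, 1 of them CD3-positive, so doublets were hardly looked for and none were removed. The skin and day 0 libraries shared 4 cell barcodes, none of a CD3-positive cell.

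With 1 library there is no replicate and no test. All counts of a gene were summed over the cells of a class and scaled to a class total of 1000000 counts (CPM), and ratios carry exact 95% intervals that cover counting error only, not the spread between animals. A gene is called higher or lower at a ratio of 2 in either direction with at least 100 counts over both classes. The minimum is set on both classes together, so some genes passed it only with their counts in CD3-positive cells. Zbtb16, Slamf1 and Pecam1, for example, had 94, 73 and 98 counts in CD3-zero cells. Numbers of higher genes, also within lists, include such genes and are no independent support. Since the cells were chosen in this library, all such values are descriptions.

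Of the 8 genes of the receptor complex list with enough counts, beside Cd3e and Cd3d, 6 were higher in CD3-positive cells and 0 lower by the fold used for calls. Among all 7738 genes with enough counts, 5.12% were higher and 9.33% lower. The listed genes belong to the same complex as the 2 genes that chose the cells. Cd247 passed the minimum only with its counts in CD3-positive cells, having 84 in CD3-zero cells. Cd3g stood at 483 CPM in CD3-positive cells and 40.5 CPM in CD3-zero cells, a ratio of 11.9 (9.77 to 14.5). Cd247 stood at 90.6 against 8.82 CPM, a ratio of 10.3 (6.40 to 16.0). Trac, the alpha constant chain, stood at 514 against 50.1 CPM, a ratio of 10.2 (8.49 to 12.3). Both αβ and γδ chains were thus represented: Trdc, the delta constant chain, stood at 483 against 32.9 CPM, a ratio of 14.7 (11.98 to 18.0). The 2 beta constant chains parted, with Trbc2 at 1064 against 293 CPM (ratio 3.64, 3.23 to 4.09) and Trbc1 at 309 against 419 CPM (ratio 0.737, 0.593 to 0.906). The gamma constant chains parted too, since Trgc1 stood at 211 against 34.7 CPM (ratio 6.10, 4.58 to 8.01) and Trgc4 at 43.6 against 68.6 CPM (ratio 0.636, 0.337 to 1.10). Trgc2 had a ratio of 29.2 (18.9 to 45.2) on fewer than 100 counts. These constant genes are close copies of each other within a locus, and how reads shared between copies were assigned is not stated, so the split between Trbc1 and Trbc2 and among the gamma genes is uncertain.

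Seen cell by cell, Cd3g was counted in 68 of 104 CD3-positive cells (65.4%, 55.4 to 74.4) and in 7.79% (6.96 to 8.68) of CD3-zero cells. Trac was counted in 55.8% (45.7 to 65.5) of CD3-positive cells and 9.55% (8.64 to 10.5) of CD3-zero cells. Trbc1 was commoner among CD3-zero cells, in 54.9% (53.3 to 56.5) against 33.7% (24.7 to 43.6), while Trbc2 was found in 73.1% (63.5 to 81.3) of CD3-positive cells and 40.3% (38.7 to 41.9) of CD3-zero cells. The same shares were read in 69 cells of the 2 clusters led by Lyz2 and by Cd79a, whose median depth was 2783 counts. There Cd3g was found in 8.70% (3.26 to 18.0) and Trac in 7.25% (2.39 to 16.1) of cells. The intervals for Cd3g and Trac in these 69 cells, 1 of them CD3-positive, hold the shares of CD3-zero cells. They are wide and cannot show whether the counts in CD3-zero cells were expression. The source of those counts was not tested. Trbc1 stood at 42.0% (30.2 to 54.5) in those 69 cells, below its 54.9% in CD3-zero cells. After each cell was thinned to 1000 counts, which left out 1 CD3-positive and 165 CD3-zero cells, Cd3g was found in 40.8% against 3.55%, Trac in 32.0% against 5.15% and Trbc1 in 16.5% against 31.8%.

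**Figure D1:**
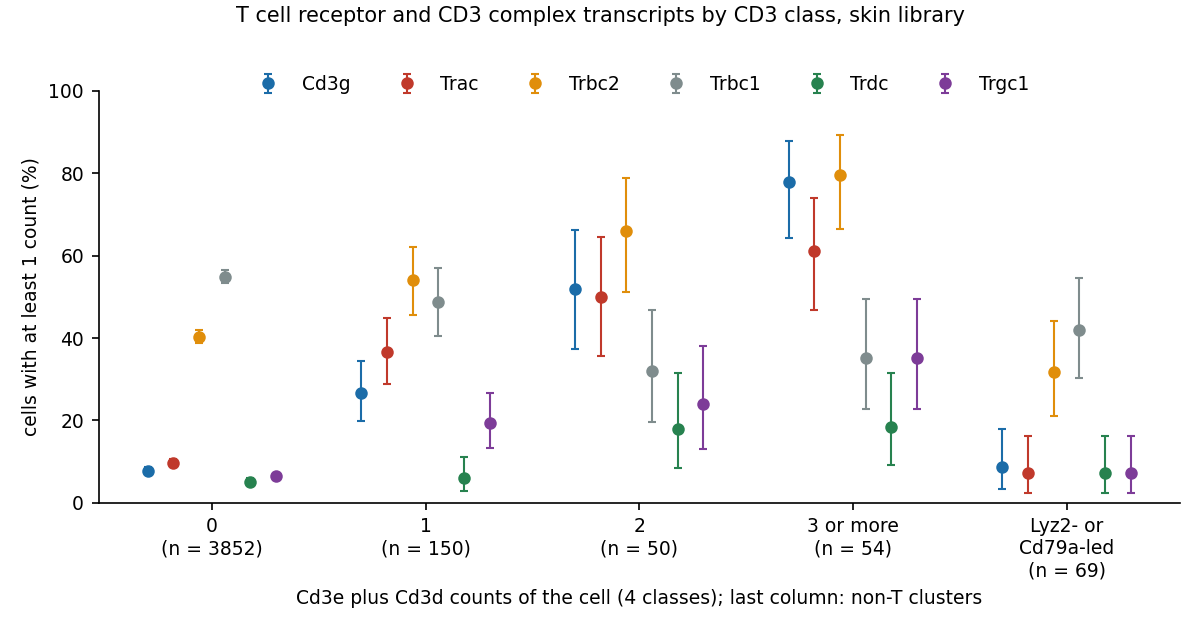
Share of skin library cells with at least 1 count of 6 receptor complex genes (vertical axis, percent) in cells with 0, 1, 2 and 3 or more Cd3e plus Cd3d counts, and in the Lyz2- and Cd79a-led clusters. Points are shares and bars exact 95% intervals; Cd3g goes from 7.79% at 0 counts to 77.8% at 3 or more, and Trbc1 from 54.9% to 35.2%.

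The alpha and delta chains lay mostly in different cells. Of the 104 CD3-positive cells, 16 had 2 or more Trdc counts, 54 had Trac and fewer than 2 Trdc counts, and 34 had neither. The 16 held 141 of all 144 Trdc counts, with a median of 7.5 and a highest value of 24 in 1 cell, and 12 of them had no Trac, while 4 had it. How far missed counts add to this split was not tested. A gamma constant chain was counted in 11 of the 16 and in 40 of the other 88 cells. Of the 58 cells with Trac, 50 also had a beta constant chain. In 6 CD3-positive cells no constant chain was counted at all. Among CD3-zero cells, 52 had 2 or more Trdc counts (1.35%) and 363 had Trac with fewer than 2 Trdc counts (9.42%).

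**Figure D2:**
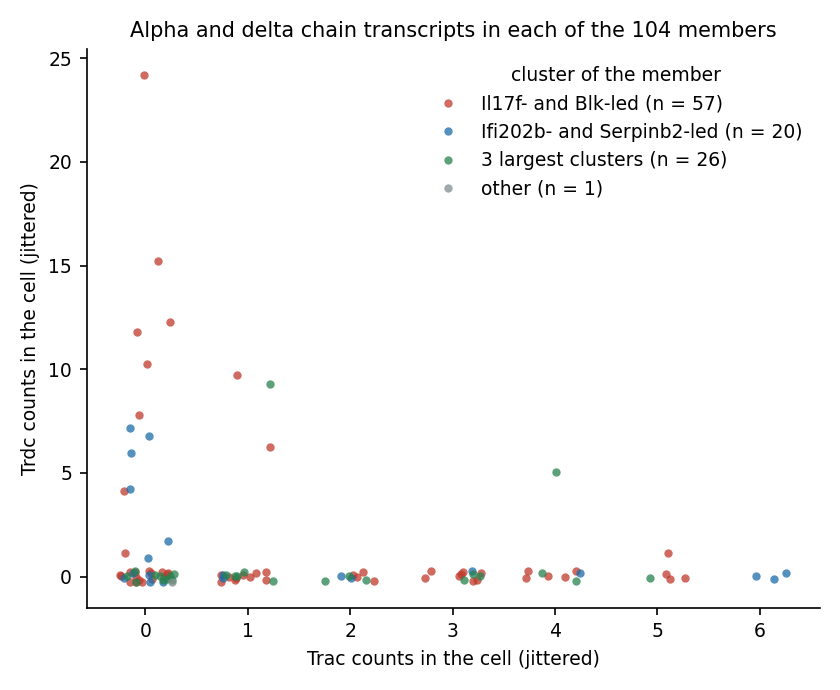
Trac counts (horizontal axis) against Trdc counts (vertical axis) in each of the 104 CD3-positive cells, jittered and coloured by cluster. Most cells lie along the 2 axes or at the origin: of the 16 with at least 2 Trdc counts, 12 had no Trac and 4 had it. Among all 104 cells, 58 had Trac.

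Receptor V segments, which join a constant chain's transcript through rearrangement but can also be transcribed unrearranged, were sparse. Beta V segments were counted in 9 CD3-positive cells (8.65%, 4.03 to 15.8) and in 4 CD3-zero cells (0.104%, 0.0283 to 0.266). Trbv12-2 gave the most of these, with 5 counts in 4 CD3-positive cells and 1 count in the CD3-zero cells. Alpha V segments were counted in 3 CD3-positive cells (2.88%, 0.599 to 8.20) and 4 CD3-zero cells (0.104%). Gamma V segments were counted in 7.69% (3.38 to 14.6) against 1.22% (0.898 to 1.62). Beta J segments showed no such excess, at 3.85% (1.06 to 9.56) against 5.53% (4.83 to 6.30). Delta V segments stood at 9.62% (4.71 to 16.97) against 8.57% (7.70 to 9.50), and nearly all of those counts were Trdv4, with 14 counts in 8 CD3-positive cells and 369 counts in 328 CD3-zero cells. Of the 14 Trdv4 counts, 12 were in cells with 2 or more Trdc counts.

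Other T cell markers were mixed, so the label of a T cell rested on part of the list. Cd6, a T cell surface receptor, was counted in 9 of 104 CD3-positive cells (8.65%, 4.03 to 15.8) and in 1 of 3852 CD3-zero cells (0.0260%). Cd5, a related inhibitory receptor, was counted in 1 CD3-positive cell and no CD3-zero cell. Lat, the adaptor downstream of the receptor, was at 255 against 128 CPM (ratio 1.99, 1.55 to 2.51), and Cd28, a costimulatory receptor, was at 148 against 122 CPM (ratio 1.21, 0.873 to 1.63). Of the coreceptors, Cd4 was counted in 5 CD3-positive cells and Cd8a or Cd8b1 in 2, so 7 of 104 had a coreceptor count, against 23 of 3852 CD3-zero cells. Cd4 stood at 50.3 against 2.101 CPM (ratio 24.0, 11.4 to 49.2) on fewer than 100 counts, with 8 of its 15 counts in 1 CD3-positive cell. It was counted in 4.81% (1.58 to 10.9) of CD3-positive cells, 0.415% of CD3-zero cells and 4.35% (0.906 to 12.2) of the 69 cells of the Lyz2- and Cd79a-led clusters. Foxp3, the factor of regulatory T cells, was counted in 2 CD3-positive cells.

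Of the receptor signalling list, 4 of 21 genes with enough counts were higher and 1 lower. The kinase Lck, which starts the signal, stood at 349 against 74.8 CPM (ratio 4.67, 3.76 to 5.74). Sit1, an adaptor that restrains it, stood at 107 against 16.9 CPM (ratio 6.35, 4.204 to 9.33). The adhesion receptor Cd2 stood at 131 against 39.4 CPM (ratio 3.32, 2.33 to 4.63), and the adaptor Grap2 at 299 against 142 CPM (ratio 2.105, 1.68 to 2.61). Cd27, a TNF receptor family member, was lower, at 50.3 against 159 CPM (ratio 0.316, 0.176 to 0.522). Over all 7738 genes with enough counts, 396 were higher in CD3-positive cells, which is 5.12%, and 722 were lower, which is 9.33%, with a median log2 ratio of 0.01. The counting interval lay clear of 1 for 352 of the 396 and 283 of the 722. Of 22 T cell receptor target and immediate early genes, 0 were higher and 4 lower, not far from these shares over all genes, with a median log2 ratio of −0.47. The 4 were Egr2, Egr3, Dusp2 and Myc, and Egr2, a factor that receptor signals induce, stood at 20.1 against 96.9 CPM (ratio 0.208, 0.0761 to 0.454).

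Taken over all clusters together, the type 2 programme was lower in CD3-positive cells, and the reading within 1 cluster is given below. Of 20 genes on the ILC2 list with enough counts, 12 were lower and 0 higher, beside 9.33% and 5.12% over all genes, with a median log2 ratio of −1.42. Gata3, the transcription factor on which ILC2s depend, stood at 594 against 1750 CPM (ratio 0.339, 0.291 to 0.394), and was counted in 49 of 104 CD3-positive cells. Il1rl1, the IL-33 receptor, stood at 16.8 against 227 CPM (ratio 0.0741, 0.0240 to 0.173). The cytokine genes followed: Il5 at 453 against 1247 CPM (ratio 0.363, 0.304 to 0.430), Il13 at 90.6 against 290 CPM (ratio 0.313, 0.206 to 0.456) and Areg, the epithelial growth factor amphiregulin, at 104 against 426 CPM (ratio 0.244, 0.166 to 0.347). Csf2, which encodes GM-CSF, stood at 23.5 against 138 CPM (ratio 0.171, 0.0685 to 0.353). Il5 or Il13 was still counted in 24 CD3-positive cells. The lowest ratios of all named genes included Bmp2, a secreted growth factor, at 13.4 against 259 CPM (ratio 0.0519, 0.0141 to 0.133), and the chemokine Ccl1 at 6.71 against 98.5 CPM (ratio 0.0681, 0.00824 to 0.247). Kit, the stem cell factor receptor of mast cells and some ILCs, stood at 121 against 450 CPM (ratio 0.268, 0.188 to 0.372).

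Some type 17 genes were higher. Of 14 genes on the ILC3 and type 17 list, 5 were higher and 1 lower, beside 5.12% and 9.33% over all genes, with a median log2 ratio of 0.74. The 5 include Il17a and Blk, which passed the minimum only with their counts in CD3-positive cells. They had 97 and 76 counts in CD3-zero cells. Il17a stood at 178 against 10.2 CPM (ratio 17.5, 12.2 to 24.6), with its 53 counts in 11 CD3-positive cells. Il17f stood at 205 against 2.94 CPM (ratio 69.6, 43.8 to 113) on fewer than 100 counts, of which 35 came from 1 CD3-positive cell. Blk, a kinase of IL-17-producing γδ T cells and B cells, stood at 218 against 7.98 CPM (ratio 27.3, 19.3 to 38.6). The IL-1 receptor Il1r1 stood at 90.6 against 11.1 CPM (ratio 8.14, 5.13 to 12.5). Scart1, a scavenger receptor of γδ T cells, stood at 215 against 20.3 CPM (ratio 10.6, 7.86 to 14.1), and its ratio was 1.70 on the log2 scale, down from 3.41, without the 16 cells with 2 or more Trdc counts. Zbtb16, the factor PLZF of innate-like T cells and ILC precursors, stood at 107 against 9.87 CPM (ratio 10.9, 7.05 to 16.4). Il22 was within counting error at 57.1 against 48.1 CPM (ratio 1.19, 0.685 to 1.92).

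Cytotoxic and chemokine genes were higher as well. Of 12 genes on the ILC1, NK and cytotoxic list, 8 were higher and 0 lower, beside 5.12% and 9.33% over all genes, with a median log2 ratio of 2.26. The 8 include Gzma and Ccl4, which passed the minimum only with their counts in CD3-positive cells. They had 75 and 77 counts in CD3-zero cells. Gzma, a granzyme, stood at 151 against 7.88 CPM (ratio 19.2, 12.9 to 28.1), Ccl5 at 316 against 19.4 CPM (ratio 16.2, 12.5 to 20.9) and Ccl4 at 114 against 8.09 CPM (ratio 14.1, 9.14 to 21.4). These counts lay in few cells, since 9 CD3-positive cells had Gzma, 9 had Ccl5 and 5 had Ccl4. For each gene 1 cell held a large part: 22 of 45 Gzma counts, 47 of 94 Ccl5 counts and 26 of 34 Ccl4 counts. Tbx21, the factor T-bet of ILC1s and type 1 T cells, had 4 counts in all CD3-positive cells together. Surface receptors went both ways. Of 17 genes on the costimulatory and inhibitory receptor list, 5 were higher and 5 lower, with a median log2 ratio of 0.27. The 5 lower were Btla, Tnfrsf18, Cd27, Cd200r1 and Tnfsf9. Among the higher, Pdcd1 (PD-1) stood at 144 against 22.5 CPM (ratio 6.42, 4.52 to 8.94) and Slamf1 at 148 against 7.67 CPM (ratio 19.3, 12.9 to 28.4). Cd7 stood at 275 against 41.8 CPM (ratio 6.58, 5.13 to 8.37). Its list, of ILC progenitor and early lymphoid genes, had 3 of 15 higher and 1 lower, with a median log2 ratio of −0.03. Thy1, which encodes CD90, stood at 1591 against 780 CPM (ratio 2.04, 1.85 to 2.24), and Il7r was within the call limits at 1124 against 1035 CPM (ratio 1.09, 0.971 to 1.21). Bcl11b and Id2, factors of T cells and of ILCs, had ratios of 1.37 (1.11 to 1.67) and 0.673 (0.619 to 0.732).

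**Figure D3:**
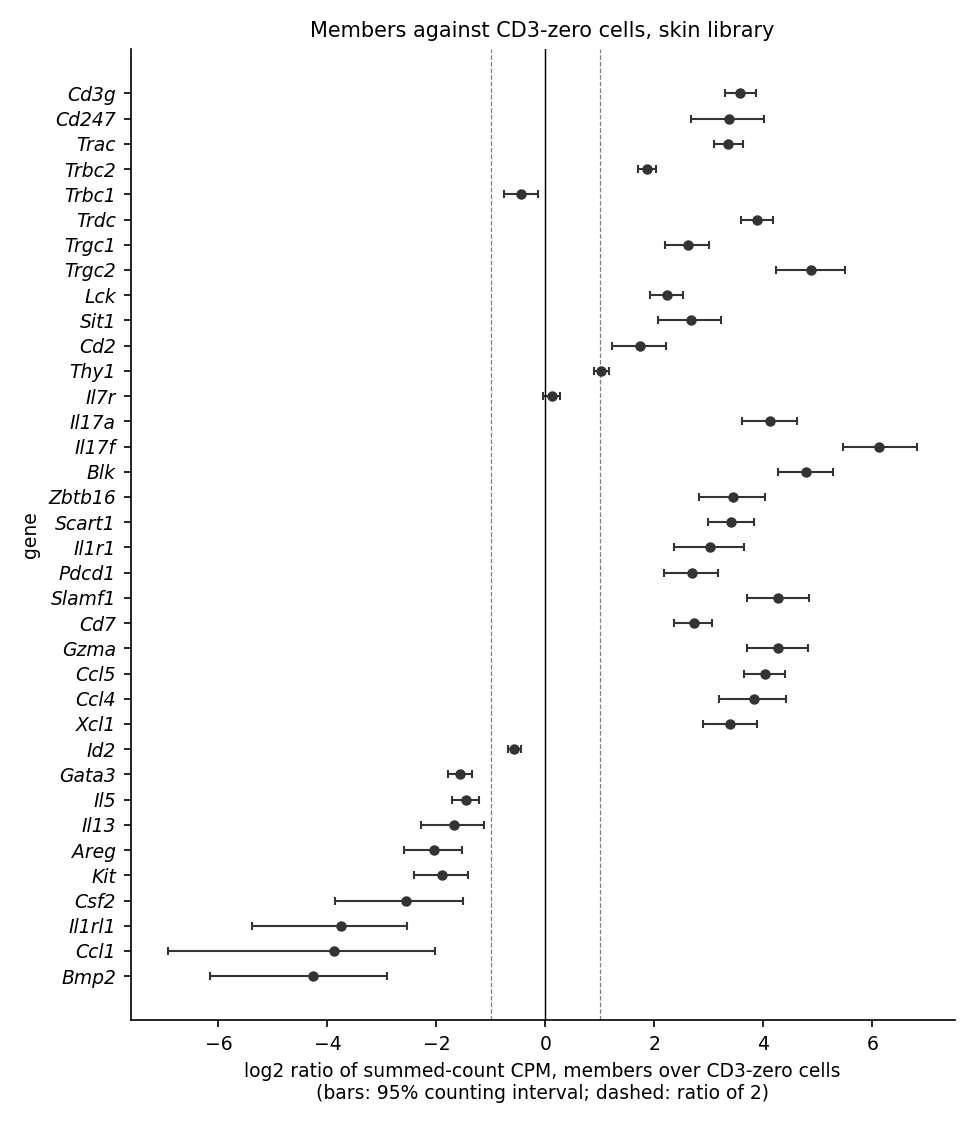
Log2 ratio of CPM from summed counts, CD3-positive over CD3-zero cells (horizontal axis), for 36 named genes (vertical axis), with 95% counting intervals as bars and a ratio of 2 in either direction dashed. Receptor, type 17 and cytotoxic genes lie to the right, with Il17f highest at 6.12, and type 2 genes to the left, with Bmp2 lowest at −4.27.

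Markers of other cells were mostly low in CD3-positive cells. Lyz2 of macrophages, Cd79a of B cells and Hba-a1 of red cells were each at 0 counts. The summed macrophage and monocyte list stood at 131 against 253 CPM, with 8 of its 17 genes at 0, the mast cell and basophil list at 128 against 457 CPM with 9 of 11 at 0, and the keratinocyte list at 97.3 against 174 CPM with 10 of 14 at 0. In the mast cell and basophil list, Kit, which some ILCs carry too, gave 36 of 38 counts in CD3-positive cells. It gave 4287 of 4350 counts in CD3-zero cells, so the difference in that list is mostly that of Kit. The B cell list stood at 158 against 165 CPM with 5 of 11 at 0, and within it Ighm was at 73.8 against 29.9 CPM (ratio 2.47, 1.52 to 3.81). The endothelial list stood at 53.7 against 14.3 CPM with 8 of 10 at 0, and 15 of its 16 counts were Pecam1, which lymphocytes carry too. Their part in the other differences was not tested.

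CD3-positive cells were concentrated in 2 small clusters. The skin library was clustered without the receptor complex genes and segments, and 57 of the 104 lay in a cluster of 181 cells led by Il17f and Blk, which held 54.8% of them and 4.41% of all cells. In that cluster 31.5% (24.8 to 38.8) of cells were CD3-positive. A further 20 lay in a cluster of 67 cells led by Ifi202b and Serpinb2, where they made up 29.9% (19.3 to 42.3). The 3 largest clusters, which together hold most of the library, had 26: 9 of 1515 cells in the cluster led by Hspa1a (0.594%, 0.272 to 1.12), 13 of 1218 in that led by Ntn4 (1.07%, 0.569 to 1.82) and 4 of 1042 in the ILC2-like cluster led by Il1rl1 (0.384%, 0.105 to 0.980). The last CD3-positive cell was 1 of 55 in the Lyz2-led cluster. The Il17f- and Blk-led cluster had markers of both ILC3s and γδ T cells among its leading genes and was therefore not named as a cell type.

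**Figure D4:**
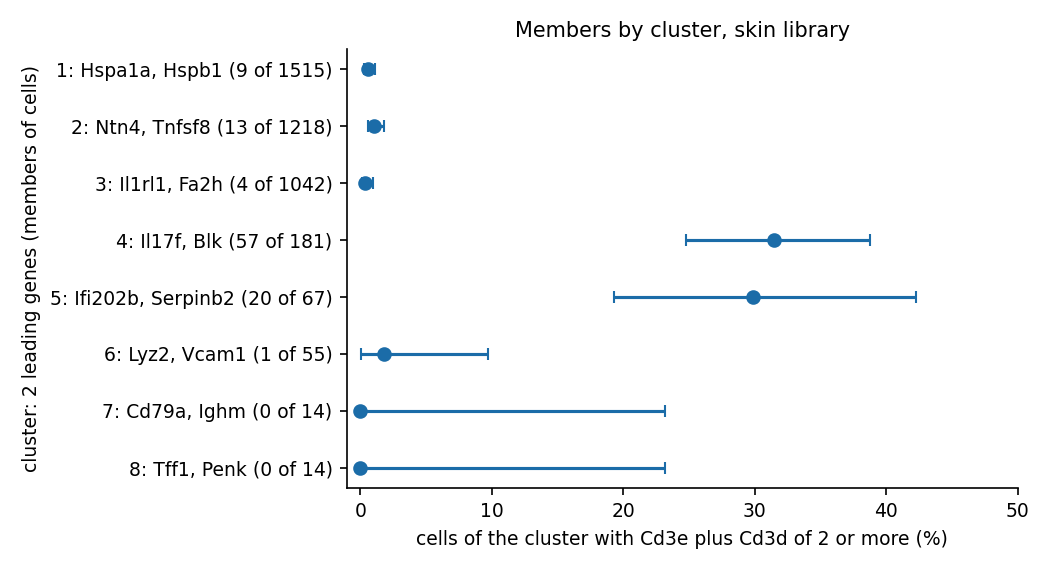
Share of each cluster's cells that were CD3-positive (horizontal axis, percent; bars: exact 95% intervals), with clusters named by their 2 leading genes and the number of CD3-positive cells of all cells (vertical axis). The Il17f- and Blk-led cluster (31.5%) and the Ifi202b- and Serpinb2-led cluster (29.9%) lie far to the right of the 3 largest, which are at 0.384 to 1.07%.

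Within the Il17f- and Blk-led cluster, the CD3-positive cells were set against the 74 CD3-zero cells beside them. Of 623 genes with enough counts, 4 were higher (0.642%) and 10 lower (1.61%). The minimum of 100 counts leaves out most genes in so few cells, Il17a and Il17f among them. The 4 higher genes, named here after their values were seen, were Cd3g, Il5, the transcriptional cofactor Hopx and the TNF family ligand Tnfsf8. Cd3g stood at 407 against 183 CPM (ratio 2.22, 1.46 to 3.45). Il5 stood at 589 against 167 CPM (ratio 3.52, 2.34 to 5.43), but 62 of its 97 counts came from 1 CD3-positive cell. Cd3g and Il5 passed the minimum only with their counts in CD3-positive cells, having 35 and 32 in the CD3-zero cells here. The 10 lower genes were Mki67, Stmn1, Smc4, Tubb5, Cdk11b, Hspa1b, Scart2, Lmo4, Gclc and H2-Q4. Of the cell cycle list, 3 of 5 genes with enough counts in this cluster were lower and 0 higher, while over all clusters 5 of 10 were higher and 0 lower. Mki67, a marker of proliferation, stood at 91.0 against 475 CPM (ratio 0.192, 0.103 to 0.333). Of the ILC2 list, 0 of 6 genes with enough counts in this cluster were lower and 1, Il5, was higher. The median log2 ratio of these 6 was 0.22, while over all clusters 12 of 20 were lower, with a median of −1.42. These medians cover different sets of genes. With 1.61% of all genes lower in this cluster, 0 of 6 cannot show whether the type 2 difference was absent here. Under the minimum, Areg had 15 against 40 counts (ratio 0.436, 0.224 to 0.806) and Csf2 had 3 against 12. Il13 had 7 against 9 counts, within counting error. Both classes carried the receptor chains: Trac stood at 510 against 261 CPM (ratio 1.95, 1.36 to 2.83) and Trdc at 625 against 350 CPM (ratio 1.79, 1.30 to 2.47); Trgc1 stood at 225 against 151 CPM. In this cluster 8 of the 74 CD3-zero cells had 2 or more Trdc counts.

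The IL-17 genes set the classes of this cluster further apart, though on few counts. Il17a or Il17f was counted in 16 of the 57 CD3-positive cells and in 5 of the 74 CD3-zero cells, and in no CD3-positive cell of another cluster. Both are leading genes of this cluster, so the comparison with other clusters is not independent of the clustering. Il17a stood at 322 against 78.3 CPM (ratio 4.11, 2.28 to 7.84), and Il17f at 370 against 15.7 CPM (ratio 23.6, 7.71 to 118) with 35 of its 61 counts in 1 cell. Of the 16 cells, 6 had 2 or more Trdc counts. Gata3 was lower here too, at 328 against 522 CPM (ratio 0.628, 0.442 to 0.882), within the fold used for calls, while Blk had a ratio of 1.81 (1.16 to 2.87), Zbtb16 one of 1.05 (0.607 to 1.81) and Pdcd1 one of 2.67 (1.47 to 5.03).

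The CD3-positive cells of the Ifi202b- and Serpinb2-led cluster lacked its first 2 leading genes but carried others. Ifi202b, an interferon-induced gene, had 0 counts in the 20 CD3-positive cells and 110 in the 44 CD3-zero cells, at least 14.98-fold lower against a floor of 3 counts over the group. Serpinb2, a protease inhibitor, had 0 against 150 counts, at least 20.4-fold lower on the same floor. The chemokine gene Ccl3 had 1 against 68 counts, a ratio of 0.0360 (0.000898 to 0.207). Other leading genes of the cluster were higher in them. Xcl1 stood at 742 against 427 CPM (ratio 1.74, 1.15 to 2.60), Ccl4 at 573 against 124 CPM (ratio 4.62, 2.54 to 8.70), Ccl5 at 1501 against 269 CPM (ratio 5.59, 3.79 to 8.36) and Gzma at 674 against 138 CPM (ratio 4.90, 2.80 to 8.84). Over all CD3-positive cells, the largest count in 1 cell was 26 of 34 for Ccl4, 47 of 94 for Ccl5 and 22 of 45 for Gzma. Whether these lay in the same cell was not examined. Cd7 stood at 927 against 241 CPM (ratio 3.85, 2.47 to 6.06). The receptor chains were far apart between the classes in this cluster: Cd3g stood at 911 against 55.1 CPM (ratio 16.5, 7.82 to 40.2) and Trac at 523 against 55.1 CPM (ratio 9.49, 4.27 to 23.9). Cd247 had 12 against 0 counts, at least 9.79-fold higher. Genes that ILCs share with other lymphocytes or progenitors went both ways. Bcl11b stood at 354 against 75.8 CPM (ratio 4.67, 2.15 to 10.7) and Ltb, a TNF family ligand, at 337 against 172 CPM (ratio 1.96, 1.03 to 3.67). Lower were Kit at 67.4 against 503 CPM (ratio 0.134, 0.0356 to 0.358), Tcf7, a factor of early ILCs and T cells, at 67.4 against 434 CPM (ratio 0.155, 0.0411 to 0.418) and Tmem176b at 118 against 620 CPM (ratio 0.190, 0.0744 to 0.409). Krt14 of keratinocytes had 0 counts in these 20 cells and 40 in the CD3-zero cells of the cluster.

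Among themselves the CD3-positive cells differed by the cluster they fell in. Trac stood at 510 CPM in the Il17f- and Blk-led cluster, 523 CPM in the Ifi202b- and Serpinb2-led cluster and 532 CPM in the 3 largest clusters. Il17a and Il17f had 53 and 61 counts in the 57 cells of the first and 0 in the other 2 sets. Ccl4 and Xcl1, chemokines of cytotoxic lymphocytes, had 34 and 44 counts in the 20 cells of the second and 0 in the first. These 4 genes are among the leading genes of the first or second cluster. Their split is therefore not independent of how the sets were made. Gata3 stood at 1401 CPM in the CD3-positive cells of the 3 largest clusters, near the 1812 CPM of the CD3-zero cells there (ratio 0.773, 0.629 to 0.941), and at 328 and 371 CPM in the other sets. Il5 in the 26 cells of the 3 largest clusters was at 504 against 1312 CPM (ratio 0.384, 0.269 to 0.533), and Il1rl1 at 42.0 against 233 CPM (ratio 0.180, 0.0371 to 0.527). Il5 and Il1rl1 are leading genes of the Il1rl1-led cluster, which held 4 CD3-positive and 1011 CD3-zero cells. The Hspa1a-led cluster held 9 and 1471, and the Ntn4-led cluster 13 and 1173. The ratios of Il5 and Il1rl1 thus also take in a different mix of clusters, which was not evened out. In the 3 largest clusters Trac was at 532 against 46.3 CPM (ratio 11.5, 8.03 to 16.1) and Cd3g at 294 against 37.3 CPM (ratio 7.89, 4.82 to 12.3).

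**Figure D5:**
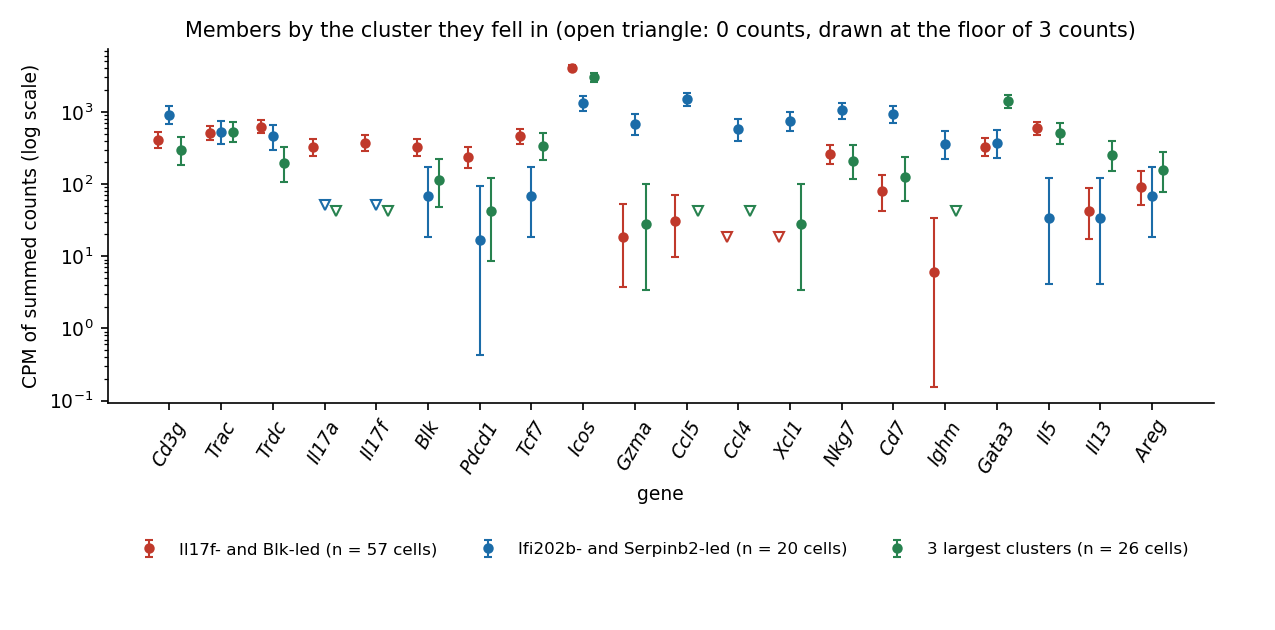
CPM of summed counts (vertical axis, log scale) of 20 genes (horizontal axis) in CD3-positive cells of the Il17f- and Blk-led cluster (57 cells), the Ifi202b- and Serpinb2-led cluster (20 cells) and the 3 largest clusters (26 cells), with 95% Poisson counting intervals as bars and open triangles at the floor of 3 counts where no count was seen. Trac lies between 510 and 532 CPM in all 3 sets, while Il17a and Il17f appear in the first set alone and Gata3 is highest in the third, at 1401 CPM. Il17a and Il17f are leading genes of the first cluster, so their place is not independent of the clustering.

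Cells with 2 or more Trdc counts and cells with Trac also parted in other genes. Scart1 had 47 counts in the 16 Trdc-carrying cells and 2 in the 54 Trac-carrying cells, a ratio of 95.8 (25.1 to 814). Blk had a ratio of 2.34 (1.34 to 4.01), and Ccl4 stood at 740 against 24.2 CPM (ratio 30.6, 10.8 to 119), again from few cells. Of the 34 Ccl4 counts of all CD3-positive cells, 26 lay in 1 cell. Cd28 had 0 counts in the Trdc-carrying cells and 40 in the others, at least 3.27-fold lower. Icos, a costimulatory receptor of αβ T cells and ILC2s, stood at 1333 against 3998 CPM (ratio 0.333, 0.248 to 0.440), and Lck at 123 against 406 CPM (ratio 0.304, 0.0956 to 0.746). Il17a stood at 173 against 157 CPM (ratio 1.10, 0.402 to 2.60), an interval too wide to tell whether it separated the 2 kinds of cell. Il17a or Il17f was counted in 6 of the 16 Trdc-carrying cells and in 16 of all 104 CD3-positive cells.

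Several ratios of the whole group rested on 1 of the clusters. Without the 20 cells of the Ifi202b- and Serpinb2-led cluster, the log2 ratio of Ccl5 was 0.11 in place of 4.02, that of Gzma 1.41 in place of 4.26, that of Xcl1 −0.26 in place of 3.39, that of Ifit3 0.01 in place of 2.43 and that of Ighm −2.84 in place of 1.30. Without the 57 cells of the Il17f- and Blk-led cluster, the log2 ratio of Pdcd1 was 0.42 in place of 2.68, that of Zbtb16 1.61 in place of 3.44 and that of Mki67 −1.51 in place of 1.33. By contrast Trac was at 3.37 without the 57 cells and 3.35 without the 20, and Gata3 at −0.92 and −1.43.

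In the dorsal skin libraries the same rule found 2 of 564 cells at day 0 (0.355%, 0.0430 to 1.28) and 1 of 454 at day 10 (0.220%, 0.00558 to 1.22), too few for the planned comparison of classes. The dorsal libraries list no mitochondrial genes, so that limit acted on the skin library alone. The deeper day 0 cell had 4 Cd3e, 2 Cd3d, 3 Trac, 2 Trbc2 and 7 Cd4 counts among 2536, together with 4 Gata3 counts. The other day 0 cell had 2 Cd3e, 1 Cd3g, 1 Trbc1 and 2 Trbc2 counts among 850, and no Trac. The day 10 cell had 3 Cd3e, 3 Trac and 1 Trbc2 count among 894, and no Gata3. None of the 3 had Trdc or Il17a. Over all cells, Cd3e stood at 8.30 CPM at day 0, 4.48 CPM at day 10 and 33.7 CPM in the skin library. Trbc1 stood at 475, 613 and 413 CPM and did not follow Cd3e. Trbc2 stood at 302, 297 and 325 CPM, in the order of Cd3e but within a narrow range. The dorsal totals behind these CPM hold no mitochondrial counts, while those of the skin library do. Cd3g was counted in 9.04% (6.81 to 11.7) of day 0 and 16.1% (12.8 to 19.8) of day 10 cells.

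Bulk libraries of sorted skin ILCs held the CD3 transcripts at uneven levels. Cd3e ranged from 1.38 to 64.5 CPM with a median of 17.4 over the 14 libraries, Cd3d from 8.44 to 137 CPM with a median of 73.9, and Cd3g from 184 to 850 CPM with a median of 333. Cd3e was 57.9 and 10.9 CPM in the 2 fm_pos libraries, 64.5 and 41.9 CPM in fm_neg, 19.7, 5.48 and 1.38 CPM in fm_pos_Gata3flox and 28.3, 29.8 and 10.3 CPM in fm_neg_Gata3flox. It was 7.502 and 17.4 CPM in WT_tamoxifen and 17.4 and 7.29 CPM in Gata3KO_tamoxifen. The libraries of fm_pos and of fm_pos_Gata3flox lay far apart, those of fm_neg lay closer together, and the ranges of fm_pos and fm_neg overlapped. Trac was at 151 and 206 CPM in WT_tamoxifen and 294 and 334.2 CPM in Gata3KO_tamoxifen, and at 30.05 to 74.3 CPM in the fate-map libraries other than the first fm_pos library, which had 248 CPM. In these mixtures, a larger share of CD3-positive cells and more transcript per cell cannot be told apart, and no test was made.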

How the data were processed

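Single-cell RNA-seq of 3 mouse skin ILC libraries and bulk RNA-seq of 14 were used. The deposited values in both are raw counts per gene, not normalised by the authors. Reads were aligned to mm10 with HISAT2 2.1.0 and counted with featureCounts from Subread, per the submitters' processing notes; the single-cell platform, the cell calling and the handling of reads shared by close gene copies are not given in the sources used here. Of 4444 skin barcodes, 338 were removed by the limits on genes and mitochondrial counts. The cells kept had 10251255, 1204618 and 892449 counts in sc_skin_ILC, sc_dorsal_day0 and sc_dorsal_day10, and the bulk libraries 14450612 to 44098274.

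Counts were summed per class and scaled to CPM in Python 3.11.15 with numpy 2.4.6, pandas 2.3.3 and scipy 1.17.1. Ratios carry exact conditional binomial 95% intervals and shares Clopper-Pearson 95% intervals, both for counting error only, and a count of 0 is bounded at 3 counts. Shares were also read from 1 seeded draw of 1000 counts per cell. Clusters were made with scanpy 1.11.5 and igraph 0.11.9 (10000 counts per cell, 2000 variable genes, 30 principal components, 15 neighbours, Leiden resolution 0.5, seed 0) without receptor complex genes and segments. The ratio script was tested on simulated data.

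The CD3-positive cells and the gene lists were chosen with earlier results of these data known. Named genes were the receptor complex list, fixed transcription factors and readouts, the 3 genes farthest from a log2 ratio of 0 in each other list, and the 15 highest and 15 lowest ratios, leaving out unnamed models, receptor segments and ribosomal, mitochondrial and haemoglobin genes. Other genes of the printed lists and clusters were chosen after their values were seen. A comparison over the dorsal libraries was planned where each class held at least 20 cells and was not run. Alternatives changed the CD3 threshold, cell limits, doublet handling, scaling, depth weighting, count minimum, fold and the cells included. Motifs were searched in RefSeq promoter windows of GRCm38.p6.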

Additional observations from a re-analysis of the deposited data

How the results depend on the processing

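The count of genes called higher in CD3-positive cells moved from 396 to 690 with 3 or more CD3 counts, 652 with a count of each of Cd3e and Cd3d, 167 with 1 or more, 649 without the Il17f- and Blk-led cells, 117 at a minimum of 300 counts, 2655 at a minimum of 1 and 1193 at a ratio of 1.5. The count called lower moved from 722 to 290 with 1 or more CD3 counts, 260 at a minimum of 300 and 1420 at a ratio of 1.5. Of the 1118 genes called, 678 kept their side at 3 or more counts, 314 at 1 or more, 504 without the Il17f- and Blk-led cells (7 changed side), 817 without the Ifi202b- and Serpinb2-led cells (11 changed side), 721 under 5% mitochondrial counts and 1059 with CD3-zero cells weighted to the depth of the CD3-positive cells. Within the Il17f- and Blk-led cluster, 37 genes were higher and 44 lower at a ratio of 1.5, and 6 were lower without the top 5% of cells by depth, an alternative added after seeing the data. The share of CD3-positive cells was 3.35% under 5% mitochondrial counts, 6.19% at 1 or more counts and 1.32% at 3 or more. Without thinning, shares of CD3-positive cells were 65.4% for Cd3g, 55.8% for Trac, 33.7% for Trbc1, 73.1% for Trbc2, 29.8% for Trgc1, 26.0% for Trgc2 and 21.2% for Cd247; thinned to 1500 counts they were 52.6% for Trac, 25.8% for Trbc1, 66.0% for Trbc2 and 17.5% for Trgc2. In 1 draw of each depth, shares at 1500 counts were lower than at 1000 for Trgc1 (16.5% against 20.4%), Cd247 (9.28% against 11.7%) and Trgc4 (4.12% against 5.83%). Expected over all draws of 1000 counts, the shares were 16.2% for Trgc1, 9.82% for Cd247 and 5.31% for Trgc4. The cause was not tested.

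Of 1299 values of 101 named genes under alternatives, 1109 stayed within the spread set by counting, 182 moved and 8 changed sign. Those were the log2 ratios of Trdc without the CD3-positive cells with 2 or more Trdc counts (−1.50, which removing nearly all Trdc counts of 1 class fixes by construction), Il1r2 (0.14) and Lyz2 (1.21) at 1 or more CD3 counts, Rsad2 (−0.86), Ighm (−2.84) and Xcl1 (−0.26) without the Ifi202b- and Serpinb2-led cells, and Mki67 (−1.51) and Actn2 (−0.38) without the Il17f- and Blk-led cells. Leaving out sets of cells by cluster or Trdc was chosen after seeing the data, as was an expected share over all thinning draws. The dorsal comparison and its alternatives (other count tools and scaling factors, no filter, threshold, depth, each library alone) were not run. No paired analysis was possible because the result comes from 1 library and no test was made between groups that share replicate numbers.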
